A study of Homo sapiens with 10 samples.

Results

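The genes of the human mitochondrial genome were followed in hTERT RPE-1 cells after knockdown of NEMP1 on a soft or a stiff substrate. They were taken as the rows of the deposited count table whose gene name starts with MT-, a rule that uses names and no measured value. Of 40664 rows, 37 met it: 13 protein genes, 2 ribosomal RNA (rRNA) genes and 22 transfer RNA (tRNA) genes. Of these, 20 had at least 1 count in at least 1 library, namely the 13 protein genes, both rRNA genes and 5 tRNA genes. The other 17 tRNA genes had 0 counts in every library. After low counts were filtered out, the 13 protein genes and the 2 rRNA genes remained for testing, and no tRNA gene did.

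RPE-1 is a diploid human line from retinal pigment epithelium that carries an added telomerase gene. NEMP1 encodes a protein of the inner nuclear membrane. Total RNA was sequenced from siNemp1 cells on a 120 kPa substrate (3 libraries), control cells at 120 kPa (3 libraries), siNemp1 cells at 10 kPa (2 libraries) and control cells at 10 kPa (2 libraries), where siNemp1 stands for a small interfering RNA against NEMP1. The sources used here do not give the agent used on control cells, the duration of treatment or the siRNA sequence, and every group comes from 1 cell line. Ribosomal RNA was removed before reverse transcription from random primers, so the rRNA values are what that depletion left.

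The mitochondrial genome is a small circle that is present in many copies per cell, and its genes have no introns. It encodes core subunits of complexes I, III and IV of the respiratory chain and of the ATP synthase, together with the rRNAs and tRNAs with which the organelle translates them. Both strands are transcribed into long precursors, which are cut mostly at the tRNAs. The other subunits of the same complexes, and the proteins that copy, transcribe and process mitochondrial DNA and RNA, are encoded in the nucleus.

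All 37 rows matched the GENCODE 29 annotation of GRCh38 by identifier, with 28 genes on the plus strand of chromosome M and 9 on the minus strand. The minus strand holds MT-ND6 and 8 tRNA genes. The sources used here do not say whether reads were counted by strand, so reads of MT-ND6 and of the other minus-strand genes cannot be told apart from reads of the opposite transcript. There are also stretches that belong to a pair of genes. MT-ATP8 (chrM:8366-8572) and MT-ATP6 (chrM:8527-9207) overlap by 46 bases and MT-ND4L (chrM:10470-10766) and MT-ND4 (chrM:10760-12137) by 7, and each pair is carried by 1 messenger RNA. The sequences below, from the GENCODE 29 transcripts on the plus strand, are shown because a read inside the capitals fits both genes. The first is MT-ATP8 whole, and the second is the junction chrM:10737-10789.

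MT-ATP8: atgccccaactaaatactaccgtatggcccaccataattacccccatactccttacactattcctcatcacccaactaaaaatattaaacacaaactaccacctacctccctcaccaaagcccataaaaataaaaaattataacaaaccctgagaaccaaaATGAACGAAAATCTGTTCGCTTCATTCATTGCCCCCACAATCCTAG
MT-ND4L to MT-ND4: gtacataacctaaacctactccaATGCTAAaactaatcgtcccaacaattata

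Copies of mitochondrial DNA also lie in the nuclear genome. Of 389 rows with names of such copies, 57 had counts and 3 exceeded an average of 1 CPM (counts per 1000000 counts, with TMM scaling between libraries). MTATP6P1, on chromosome 1 (chr1:633696-634376, plus strand), is 681 bases long like MT-ATP6 and has the same base at 671 of these positions, or 98.53%. The first 150 bases of both are given here, the gene's at chrM:8527-8676 and the copy's at chr1:633696-633845. Capitals mark the 2 positions that differ, G19A and C129T, counted from 1 at the start of MT-ATP6 with the mitochondrial base first.

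MT-ATP6: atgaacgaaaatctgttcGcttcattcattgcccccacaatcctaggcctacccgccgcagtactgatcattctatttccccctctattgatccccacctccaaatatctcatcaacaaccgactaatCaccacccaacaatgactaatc
MTATP6P1: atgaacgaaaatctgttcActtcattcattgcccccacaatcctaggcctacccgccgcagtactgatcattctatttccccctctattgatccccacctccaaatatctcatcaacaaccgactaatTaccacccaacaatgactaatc

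The longest stretch without a difference was 141 bases, so the counting could assign reads of 1 locus to the other. Counts of MTATP6P1 were 17.7% to 19.7% of those of MT-ATP6 in every library. MTCO1P12 and MTND2P28, copies with 98.64% and 98.18% identity to MT-CO1 and MT-ND2, had at most 0.0862% and 0.688% of the counts of those genes. Values of MT-ATP6 are uncertain to that extent.

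Library totals ran from 17.95 M to 23.8 M estimated counts. NEMP1 itself was at 7.52, 6.70 and 4.11 CPM in siNemp1 cells at 120 kPa, against 18.3, 14.05 and 14.07 CPM in control cells there. At 10 kPa it was at 8.22 and 7.62 CPM in siNemp1 cells, against 14.1 and 17.3 CPM in control cells. The siNemp1 libraries were below the control libraries at both stiffnesses. Of all tested genes 6.95% were so at 120 kPa and 28.5% at 10 kPa. In edgeR its log2 fold change from group means was −1.34 ± 0.22 (SE, adjusted p = 0.0569) at 120 kPa and −0.98 ± 0.27 (adjusted p = 0.803) at 10 kPa. With replicate number as a block the adjusted p was 0.00567 and 0.267, and in the 10 kPa libraries alone 7.31e-05. Of 12 markers of retinal pigment epithelium 6 had a median above 1 CPM, among them BEST1, MITF, OTX2 and PAX6, while RPE65, RLBP1 and DCT had a median of 0. Of 6 epithelial markers 3 did, with KRT8 and KRT18 high and CDH1 and EPCAM at a median of 0. In a list of 6 fibroblast genes, led by THY1 and PDGFRB, 4 exceeded 1 CPM, COL1A2 was near 0, and the summed level ran from 308 to 717 CPM in siNemp1 cells at 120 kPa, 680 to 889 CPM in control cells at 120 kPa, 745 to 746 CPM in siNemp1 cells at 10 kPa and 931 to 934 CPM in control cells at 10 kPa. In a list of 4 leukocyte genes nearly all of the sum came from CD68, a lysosomal gene, with CD3E and LYZ at medians under 0.05 CPM. That sum ran from 493 to 856 CPM in siNemp1 cells and 712 to 1167 CPM in control cells at 120 kPa, and from 934 to 1020.0 CPM in siNemp1 cells and 1080 CPM in control cells at 10 kPa. Of 3 endothelial genes none exceeded 1 CPM and CDH5 was at 0 in every library. The part of these markers in the results below was not tested.

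Together the MT- genes held 0.709% to 1.73% of a library's counts. At 120 kPa the share was 1.06%, 0.827% and 0.709% in siNemp1 libraries 1, 2 and 3, against 1.73%, 1.403% and 0.913% in control libraries 1, 2 and 3. At 10 kPa it was 1.48% and 1.55% in siNemp1 libraries, against 1.60% and 1.54% in control libraries. The siNemp1 libraries at 120 kPa were thus the lowest set, although the control library numbered 3 lay inside their range, and the 10 kPa groups overlapped. The share averaged 0.865% ± 0.179 in siNemp1 cells at 120 kPa and 1.35% ± 0.411 in control cells at 120 kPa (SD, n = 3 each). In bulk RNA, fewer mitochondrial transcripts per cell and a change in all other RNA cannot be told apart.

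**Figure D1:**
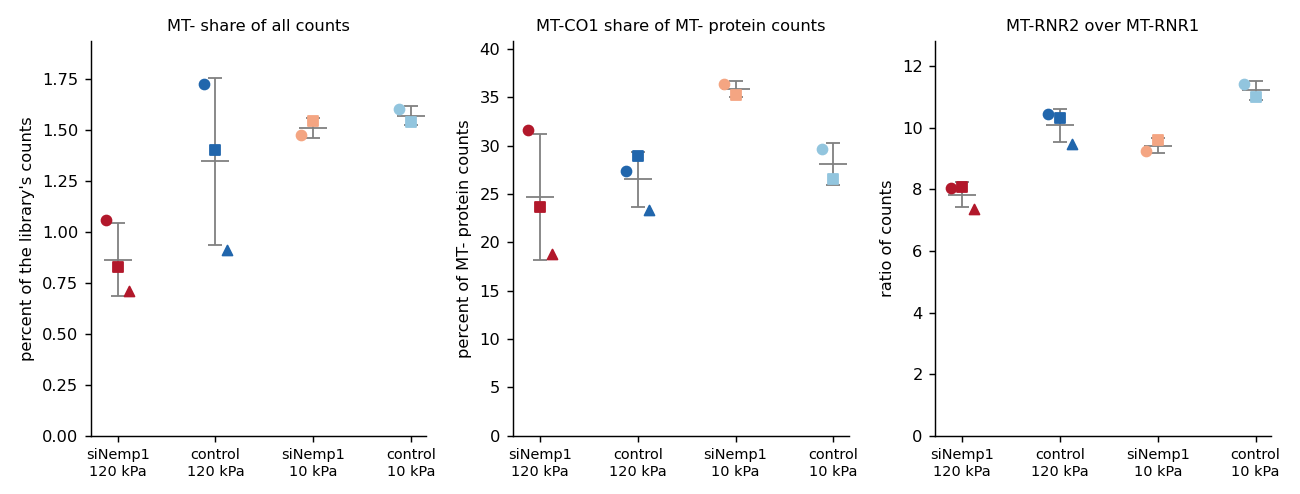
Per library, the MT- share of all counts in percent (left), the MT-CO1 share of the counts of MT- protein genes in percent (middle) and the ratio of MT-RNR2 to MT-RNR1 counts (right), by group. Circles, squares and triangles are libraries numbered 1, 2 and 3, and grey bars are mean ± SD. The MT- share is lowest in siNemp1 cells at 120 kPa, the MT-CO1 share is highest in siNemp1 cells at 10 kPa, and the rRNA ratio is lower in siNemp1 than in control cells at each stiffness.

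The tested genes covered a wide range of levels, which were compared per length as CPM per kb of annotated gene. By their median over the 10 libraries, MT-CO1 (1992 CPM per kb), MT-RNR2 (1810.0) and MT-CO2 (1718) were the highest. MT-CYB followed at 1331, MT-ATP6 at 1103 and MT-CO3 at 1050.0 CPM per kb. The complex I genes lay lower, with MT-ND4 at 885, MT-ND5 at 679.8, MT-ND6 at 359, MT-ND2 at 286, MT-ND4L at 249, MT-ND1 at 228 and MT-ND3 at 50.9 CPM per kb. MT-RNR1 was at 322 and MT-ATP8, the shortest protein gene with 207 bases, at 32.4 CPM per kb. The genes of a shared messenger RNA thus differed, by 32.4 to 1103 CPM per kb for MT-ATP8 and MT-ATP6. No correction was made for fragment length, which weighs most on short genes. The tRNA genes, 59 to 75 bases long, had 1 to 9 counts per library in all, and MT-TS1 had the most, with 7 in 1 library. A count of 0 allows a level of up to 3 counts, or 0.126 to 0.167 CPM depending on the library, by counting error alone.

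**Figure D2:**
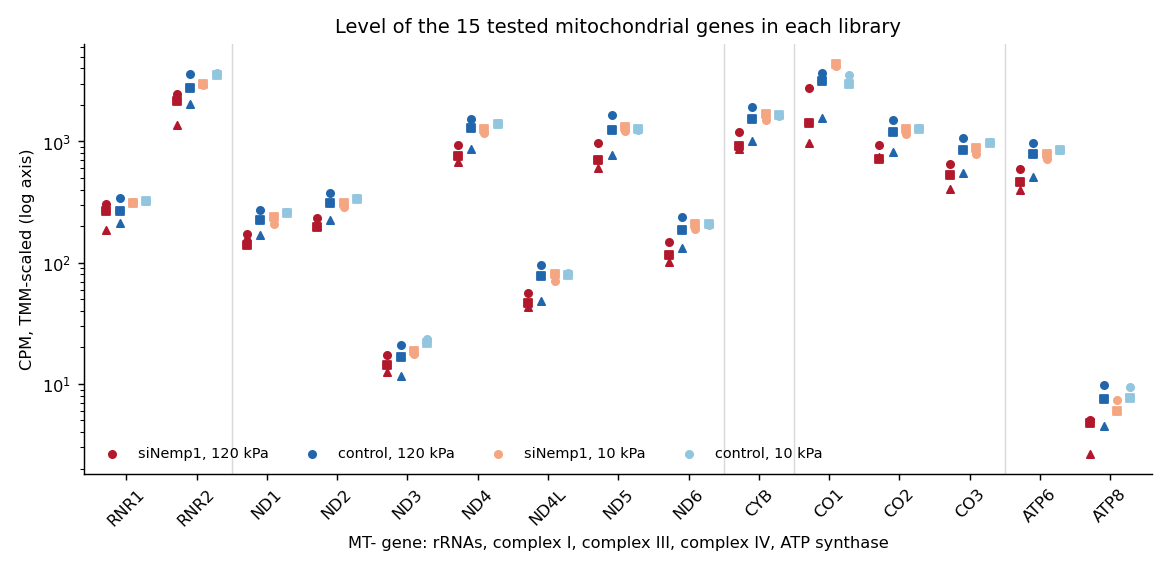
Level of each of the 15 tested MT- genes in CPM with TMM scaling (log axis) in each library, with genes ordered by role and groups from left to right as in the legend. Circles, squares and triangles are libraries numbered 1, 2 and 3. In most genes the control triangle at 120 kPa lies inside the siNemp1 range at 120 kPa, and the 10 kPa libraries of a group lie close together.

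Knockdown at 120 kPa was the first comparison, and all 15 tested genes had a negative log2 fold change, with a median of −0.61, against a median of 0.006 over all tested genes. In the fit of group means, edgeR's quasi-likelihood test called 0 of the 15 at an adjusted p under 0.05, beside 0 of all 13990 genes (0%), where 2413 genes and 11 of the 15 had an unadjusted p under 0.05. DESeq2 called 4 of them, MT-ATP6, MT-ND2, MT-ND4 and MT-ND6, all lower in siNemp1 cells, beside 0.803% of all genes called lower. At 120 kPa the deviations of a siNemp1 and a control library from their group means went together where both carried the same number. The correlations were 0.426, 0.157 and 0.359 for numbers 1, 2 and 3, read from the same counts that were then tested. With the number as a block, 12 of the 15 fell and 0 rose, beside 2.51% of all tested genes called lower and 6.24% called higher. With upper-quartile scaling that fit called 645 genes higher and 570 lower, in place of 873 and 351, and again called 12 MT- genes lower. The blocked calls rested on the pair numbered 2: without it 0 MT- genes and 2 of all genes were called. The median log2 fold change of the 15 genes was −0.552 without that pair, against −0.565 with all pairs. Without the pair numbered 1, 11 MT- genes were called, beside 4.99% of all genes called lower. Without the pair numbered 3 the call was also of 11, beside 1.65%. In the fit of group means without the control library numbered 3, 10 were called lower, beside 0.756% of all genes. In no gene were the groups apart, so 0 of 15 had every siNemp1 library below every control library, where 6.95% of all genes did.

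**Figure D3:**
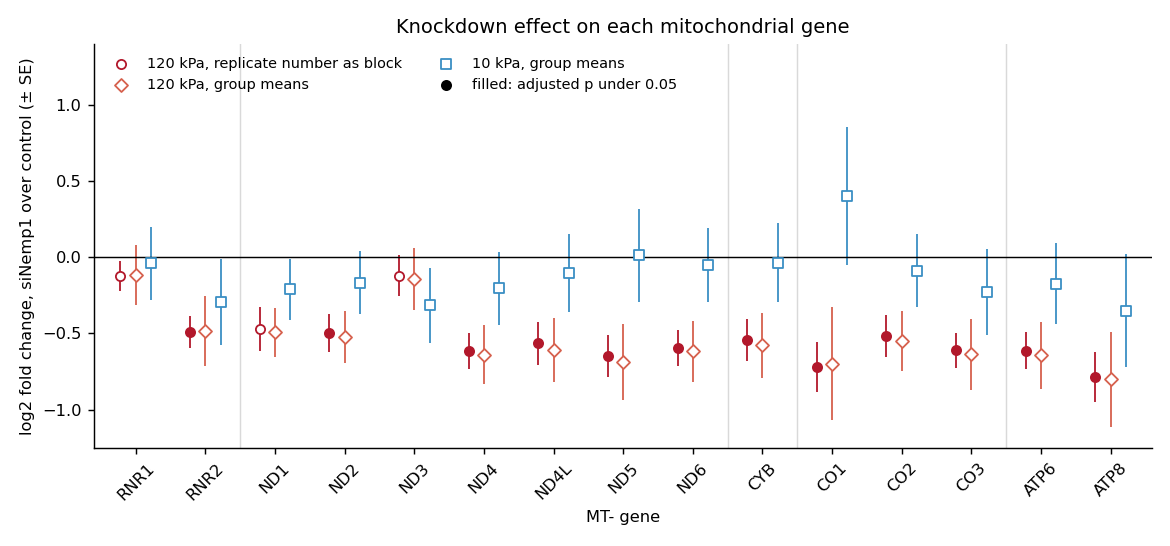
Log2 fold change of siNemp1 over control with its standard error for each tested MT- gene. Red circles are the 120 kPa comparison with replicate number as a block, orange diamonds the same comparison from group means, and blue squares the 10 kPa comparison from group means, with filled symbols for an adjusted p under 0.05. In the blocked fit 12 of the 15 genes are filled, and MT-RNR1, MT-ND1 and MT-ND3 are open.

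The rRNAs moved unequally. MT-RNR2, the RNA of the large mitochondrial ribosomal subunit, was at 2442, 2163 and 1379 CPM in siNemp1 libraries at 120 kPa, against 3598, 2739 and 2028 CPM in control libraries. MT-RNR1, the RNA of the small subunit, was at 304, 268 and 188 CPM in siNemp1 libraries, against 344, 265.5 and 214 CPM in control libraries. MT-RNR2 was lower in the siNemp1 library of each pair, and MT-RNR1 in 2 of the 3. With the block MT-RNR2 fell by 0.49 ± 0.11 on the log2 scale (SE, adjusted p = 0.0196), and MT-RNR1 had a log2 fold change of −0.12 ± 0.10 (adjusted p = 0.494). From group means MT-RNR1 was at 0.075 without control library 1 and at 0.019 without siNemp1 library 3.

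Complex I, which passes electrons from NADH to ubiquinone, has 7 mitochondrial subunits, and 5 of them fell in the blocked fit. MT-ND4, a proton-pumping membrane subunit, was at 934, 756 and 679 CPM in siNemp1 libraries at 120 kPa, against 1539, 1282 and 872 CPM in control libraries. MT-ND5, the largest of these subunits, was at 977, 704 and 603 CPM in siNemp1 libraries, against 1654, 1249.8 and 775 CPM in control libraries. For both genes siNemp1 library 1 lay above control library 3, so the groups overlapped, yet the siNemp1 library was lower in every pair. MT-ND4 fell by 0.61 ± 0.12 on the log2 scale (SE, adjusted p = 0.014) and MT-ND5 by 0.65 ± 0.14 (adjusted p = 0.0198) with the block. The group means gave −0.64 ± 0.19 (adjusted p = 0.136) and −0.69 ± 0.25 (adjusted p = 0.196).

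MT-ND6 is the protein gene of the opposite strand. It was at 147, 116 and 101 CPM in siNemp1 libraries at 120 kPa, against 239, 187 and 133 CPM in control libraries, and fell by 0.59 ± 0.12 with the block (adjusted p = 0.0156). Its share of the counts of MT- protein genes was 1.65% to 1.98% over all libraries, so its counts moved with those of the other strand's genes. With the strand setting not given, part of its counts may be reads of the opposite transcript, so this does not show how the MT-ND6 transcript itself moved. MT-ND2 was at 236, 197 and 201 CPM in siNemp1 libraries, against 377, 309.5 and 224 CPM in control libraries. MT-ND4L, which shares its messenger RNA with MT-ND4, was at 56.4, 46.2 and 42.9 CPM in siNemp1 libraries, against 95.2, 77.8 and 48.6 CPM in control libraries. Both were lower in the siNemp1 library of each pair, and fell by 0.50 ± 0.12 (adjusted p = 0.0331) and 0.565 ± 0.14 (adjusted p = 0.0328).

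MT-ND1 and MT-ND3 did not pass with the block. MT-ND1 was at 172, 139.9 and 163 CPM in siNemp1 libraries at 120 kPa, against 272, 227 and 169 CPM in control libraries, with a log2 fold change of −0.47 ± 0.14 (adjusted p = 0.0676). MT-ND3 was at 17.5, 14.3 and 12.7 CPM in siNemp1 libraries, against 20.8, 16.6 and 11.7 CPM in control libraries, with −0.12 ± 0.14 (adjusted p = 0.641), and at 0.067 from group means without control library 1. In pair 3 the log2 ratio of siNemp1 to control was −0.05 for MT-ND1 and 0.12 for MT-ND3, while in pair 1 it was −0.66 and −0.26.

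Complex III, which passes electrons from ubiquinol to cytochrome c, has 1 mitochondrial subunit, cytochrome b. Its gene MT-CYB was at 1205, 917 and 872 CPM in siNemp1 libraries at 120 kPa, against 1935, 1528 and 1010.2 CPM in control libraries. It was lower in the siNemp1 library of each pair and fell by 0.54 ± 0.14 on the log2 scale with the block (SE, adjusted p = 0.0371).

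Complex IV, cytochrome c oxidase, takes its catalytic core from MT-CO1, MT-CO2 and MT-CO3, and all 3 fell with the block. MT-CO1 was at 2745, 1430 and 974 CPM in siNemp1 libraries at 120 kPa, against 3647, 3142 and 1564 CPM in control libraries. It spread most among the siNemp1 libraries, with a highest value 2.82 times the lowest. Its fall was 0.72 ± 0.16 on the log2 scale with the block (SE, adjusted p = 0.0262), and −0.70 ± 0.37 from group means (adjusted p = 0.367). MT-CO2 was at 943, 722 and 738 CPM in siNemp1 libraries, against 1500.2, 1201 and 818 CPM in control libraries. MT-CO3 was at 654, 530.0 and 408 CPM in siNemp1 libraries, against 1077, 852 and 548 CPM in control libraries. MT-CO2 fell by 0.52 ± 0.14 (adjusted p = 0.0454), the call nearest to the threshold, and MT-CO3 by 0.61 ± 0.12 (adjusted p = 0.0137).

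The ATP synthase takes 2 subunits of its membrane part from the mitochondrion, of which MT-ATP6 encodes a part of the proton channel. MT-ATP6 was at 594, 467 and 395 CPM in siNemp1 libraries at 120 kPa, against 975, 791 and 509.7 CPM in control libraries. MT-ATP8 was at 5.06, 4.79 and 2.64 CPM in siNemp1 libraries, against 9.73, 7.49 and 4.51 CPM in control libraries, and rests on 61 to 215 counts per library. Both were lower in the siNemp1 library of every pair. They fell by 0.61 ± 0.12 (adjusted p = 0.0156) and 0.79 ± 0.16 (adjusted p = 0.0173) with the block. The nuclear copy MTATP6P1 had a log2 fold change of −0.70 ± 0.12 (adjusted p = 0.0111), so its counts moved with those of MT-ATP6.

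**Figure D4:**
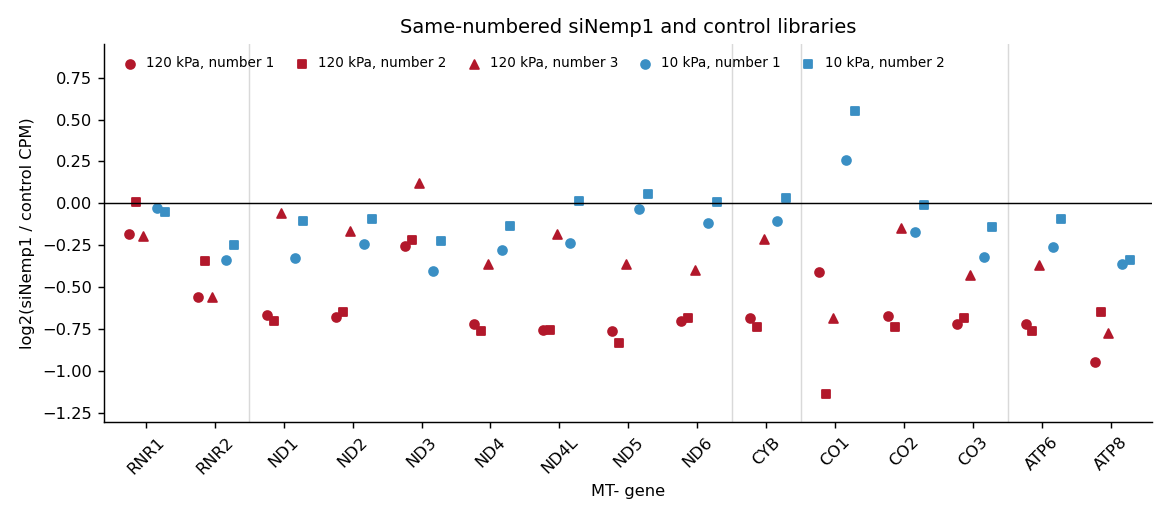
Log2 ratio of CPM in the siNemp1 library to that in the control library with the same number, for each tested MT- gene, with 120 kPa in red and 10 kPa in blue. At 120 kPa every point lies below 0 except MT-ND3 in pair 3 and MT-RNR1 in pair 2. MT-CO1 lies below 0 in the 3 pairs at 120 kPa and above 0 in both pairs at 10 kPa.

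At 10 kPa the changes were smaller, and MT-CO1 stood on the other side of 0. The median log2 fold change of the 15 genes was −0.17, against −0.002 over all tested genes, and 13 of the 15 were negative. In the fit of group means edgeR called 0 of the 15, beside 0 of all genes (0%), with 850 genes and 0 of the 15 at an unadjusted p under 0.05. DESeq2 called 0 of the 15 among 17 calls over all genes. With the block edgeR also called 0, beside 0.0286% of all genes, with 1 of the 15 and 1426 of all genes at an unadjusted p under 0.05. When the 4 libraries at 10 kPa were fitted alone, whose replicates lay closer together, 7 genes fell beside 9.19% of all genes called lower, and 1 rose beside 8.1% called higher. That fit rests on 2 libraries per group. Without siNemp1 library 1 that fit gave a median log2 fold change of −0.087 over the 15 genes, and without siNemp1 library 2 it gave −0.225. Without control library 1 it called 1, the rise of MT-CO1, beside 6.16% of all genes, and without control library 2 it called 0, beside 8.45%.

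The gene that rose in the fit of the 10 kPa libraries alone was MT-CO1. It was at 4197 and 4393 CPM in siNemp1 libraries at 10 kPa, against 3508.5 and 3002 CPM in control libraries, and both siNemp1 libraries were above both control libraries. Its log2 fold change there was 0.39 ± 0.07 (SE, adjusted p = 0.00073), and 0.40 ± 0.45 from the fit of all group means (adjusted p = 0.93). MT-CO2, of the same complex, was at 1149.7 and 1267 CPM in siNemp1 libraries, against 1292 and 1276 CPM in control libraries. MT-CO3 was at 794 and 884 CPM in siNemp1 libraries, against 991 and 975 CPM in control libraries, and fell by 0.24 ± 0.06 in the fit of the 10 kPa libraries alone (adjusted p = 0.00638). MT-CO2 had −0.10 ± 0.06 in that fit (adjusted p = 0.262). The rise of MT-CO1 was called in 1 of the 4 fits that leave out a library, with log2 fold changes of 0.28 to 0.50 over the 4, and the fall of MT-CO3 in 2 of them.

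The 7 that fell in the fit of all 4 libraries were MT-RNR2, MT-ND1, MT-ND2, MT-ND3, MT-ND4, MT-CO3 and MT-ATP6, and none of these was called without control library 1 or without control library 2. MT-RNR2 was at 2905 and 2972 CPM in siNemp1 libraries, against 3664 and 3534 CPM in control libraries, and fell by 0.31 ± 0.06 (adjusted p = 0.000694). MT-ND4 was at 1164 and 1274 CPM in siNemp1 libraries, against 1410.4 and 1399.8 CPM in control libraries. MT-ND3 was at 17.7 and 18.5 CPM in siNemp1 libraries, against 23.5 and 21.6 CPM in control libraries. In each of these the groups were apart. MT-ND1 was at 209 and 238 CPM in siNemp1 libraries, against 262 and 256 CPM in control libraries, and MT-ND2 at 286 and 313 CPM, against 339 and 333 CPM. MT-ATP6 was at 711 and 793 CPM in siNemp1 libraries, against 852 and 845 CPM in control libraries. The falls of the 7 ran from 0.18 ± 0.06 for MT-ND2 to 0.33 ± 0.11 for MT-ND3 on the log2 scale.

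The other genes did not pass at 10 kPa in the fit of group means, with the block or in the fit of the 4 libraries. Of them, siNemp1 library 1 was below both control libraries in MT-CO2, MT-CYB, MT-ND4L, MT-ND5 and MT-ND6. In MT-CYB, MT-ND5 and MT-ND6 siNemp1 library 2 was above both. MT-RNR1 was at 314 and 310.1 CPM in siNemp1 libraries, against 320.5 and 321 CPM in control libraries, and MT-ATP8 at 7.42 and 6.01 CPM, against 9.53 and 7.60 CPM. MT-CYB was at 1509 and 1675 CPM in siNemp1 libraries, against 1622 and 1641 CPM in control libraries, and MT-ND5 at 1217 and 1314 CPM, against 1247 and 1261 CPM. MT-ND6 was at 190.4 and 210.2 CPM in siNemp1 libraries, against 206 and 209 CPM in control libraries, and MT-ND4L at 70.1 and 80.6 CPM, against 82.4 and 79.6 CPM. The groups overlapped in MT-CYB, MT-ND4L, MT-ND5 and MT-ND6. Over all 15, both siNemp1 libraries were below both control libraries in 10 genes, where 28.5% of all tested genes were, and above them in MT-CO1, where 28.8% were.

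Stiffness was compared within each treatment. In siNemp1 cells all 15 genes were lower in each of the 3 libraries at 120 kPa than in both libraries at 10 kPa, which 15.5% of all tested genes were. The largest difference was that of MT-CO1, at 2745, 1430 and 974 CPM at 120 kPa, against 4197 and 4393 CPM at 10 kPa. Its log2 fold change was −1.32 ± 0.41 from group means (SE, adjusted p = 0.315) and −1.09 ± 0.19 with the block (adjusted p = 0.0998). The median of the 15 genes was −0.63, against 0.02 over all genes, and −0.46 with the block. edgeR called 0 of the 15 in either fit, beside 0% of all genes from group means and 0.0143% with the block. At an unadjusted p under 0.05 there were 11 of the 15 and 1655 of all genes in the fit of group means, and DESeq2 called 0 of the 15 among 98 calls. With the block there were 13 of the 15 and 1543 of all genes. Without a filter on low counts edgeR called 10 of the 15 lower, beside 0.31% of all genes.

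In control cells the 15 genes had a median log2 fold change of −0.19 between 120 and 10 kPa, against −0.005 over all genes, and of −0.02 with the block. edgeR called 0 of the 15, beside 0.0143% of all genes, and 0 with the block, beside 0.0214%. In the fit of group means 0 of the 15 and 569 of all genes had an unadjusted p under 0.05, with the block 0 and 635, and DESeq2 called 0 of the 15 among 12 calls. MT-ND3 was the 1 gene whose libraries were apart, with every library at 120 kPa below both at 10 kPa, where 11.9% of all genes were. It was at 20.8, 16.6 and 11.7 CPM in control cells at 120 kPa, against 23.5 and 21.6 CPM in control cells at 10 kPa, with a log2 fold change of −0.46 ± 0.22 (adjusted p = 0.991). The comparisons within siNemp1 and within control cells share no library with each other, but each shares its libraries with the knockdown comparisons.

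The difference between the knockdown effects at 120 and 10 kPa was tested as a contrast of its own. It was negative for 14 of the 15 genes, with a median of −0.45, and positive for MT-ND3, at 0.17 ± 0.32, which was −0.030 without the control library numbered 3 at 120 kPa. edgeR called 0 of the 15, beside 0.00715% of all genes, and 0 with the block, beside 0.0286%. An unadjusted p under 0.05 was found for 0 of the 15 and 235 of all genes from group means, and for 5 and 488 with the block, and DESeq2 called 0 of the 15 among 3 calls. MT-CO1 differed most, by −1.10 ± 0.59 from group means (SE, adjusted p = 1) and by −1.14 ± 0.26 with the block (adjusted p = 0.734) in edgeR. Without a filter on low counts MT-CO1 was called, at −1.10 ± 0.25 (adjusted p = 0.00461), beside 0.297% of all genes. It was also called with the block when the pair numbered 1 at 120 kPa was left out, at −1.32 ± 0.18 (adjusted p = 0.0244), beside 0.0577% of all genes.

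The mean knockdown effect over both stiffnesses was negative for all 15 genes, with a median log2 fold change of −0.34, against −0.003 over all genes. edgeR called 0 of the 15 from group means, beside 1.29% of all genes, with 6 of the 15 and 2763 of all genes at an unadjusted p under 0.05, and DESeq2 called 0 of the 15 among 967 calls. With the block 5 fell, MT-RNR2, MT-ND4, MT-CO3, MT-ATP6 and MT-ATP8, beside 4.17% of all genes called lower. The block gives each number the same shift at both stiffnesses, which was not tested, and same-numbered libraries at 10 kPa correlated at only 0.0171. MT-RNR2 fell by 0.39 ± 0.08 on the log2 scale (SE, adjusted p = 0.0176) and MT-ATP8 by 0.57 ± 0.13 (adjusted p = 0.0207). The blocked fit called 8 lower without the pair numbered 1 at 120 kPa, beside 8.76% of all genes, 3 without the pair numbered 2, beside 1.84%, and 12 without the pair numbered 3, beside 4.72%.

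Within the MT- counts the makeup also varied. MT-CO1 made up 31.6%, 23.6% and 18.8% of the counts of MT- protein genes in siNemp1 libraries at 120 kPa, against 27.3%, 28.9% and 23.4% in control libraries. At 10 kPa it made up 36.4% and 35.2% in siNemp1 libraries, against 29.6% and 26.6% in control libraries. The share thus spread widely among siNemp1 libraries at 120 kPa, and at 10 kPa both siNemp1 libraries stood above both control libraries. The count ratio of MT-RNR2 to MT-RNR1 was 8.04, 8.08 and 7.35 in siNemp1 libraries at 120 kPa, against 10.5, 10.3 and 9.47 in control libraries. At 10 kPa it was 9.26 and 9.59 in siNemp1 libraries, against 11.4 and 11.0 in control libraries. The siNemp1 libraries were below the control libraries at each stiffness, with means of 7.82 ± 0.41 and 10.1 ± 0.54 at 120 kPa (SD, n = 3 each). These ratios were picked after their values had been seen and were not tested. Whether the depletion removed both RNAs alike in every library was not tested.

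The genes that serve mitochondrial DNA and RNA were read from 6 lists of nuclear genes. In the fit of group means at 120 kPa edgeR called 0 members of any list, as it called 0 of all genes. With the block, the list of nuclear subunits of the respiratory chain had 28 of 71 tested members higher and 0 lower, with a median log2 fold change of 0.35, against 0.006 over all genes and 6.24% of all genes called higher. By complex, 12 of 35 subunits rose in complex I, 3 of 9 in complex III, 6 of 10 in complex IV and 7 of 17 in the ATP synthase. The mitochondrial subunits of the same complexes fell in 5 of 7, 1 of 1, 3 of 3 and 2 of 2 cases in that fit, beside 2.51% of all genes called lower. Without the pair numbered 1, 2 or 3 the nuclear list had 19, 0 and 29 members called higher. Of all genes 861 of 13860, 0 of 13879 and 528 of 13744 were called higher in these fits. With upper-quartile scaling 21 members were called higher, beside 645 of 13990 genes. At 10 kPa edgeR called 0 members of any of the 6 lists, from group means or with the block. How the lists change without 1 of the 10 kPa libraries was not tested. The fit of the 10 kPa libraries alone, on 2 libraries per group, called 23 of 69 nuclear subunits higher and 0 lower. Of all genes 8.1% were called higher in that fit. There COX4I1 of complex IV was at 526 and 584 CPM in siNemp1 libraries, against 424 and 431.5 CPM in control libraries, and rose by 0.36 ± 0.06 (adjusted p = 0.000185).

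**Figure D5:**
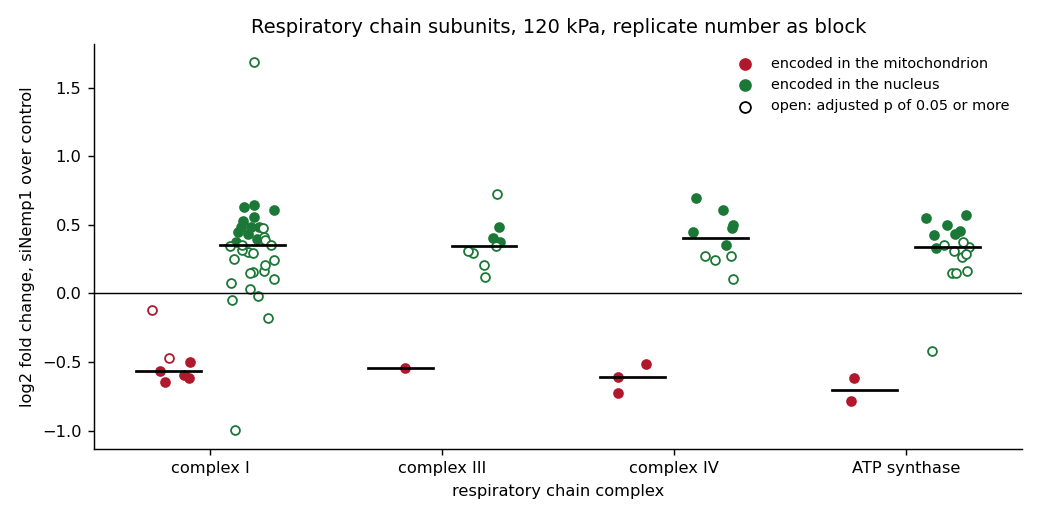
Log2 fold change of siNemp1 over control at 120 kPa with replicate number as a block, for subunits of complexes I, III and IV and of the ATP synthase encoded in the mitochondrion (red) or the nucleus (green). Filled points had an adjusted p under 0.05 and black lines are medians. In each complex the mitochondrial subunits lie below 0 and most nuclear subunits above it, 66 of 71 in all.

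The nuclear subunits named next had the smallest p in the blocked fit, and their rises were larger than the list median of 0.35. NDUFA7, a subunit of complex I, was at 64.0, 60.5 and 68.7 CPM in siNemp1 libraries at 120 kPa, against 40.2, 37.4 and 47.9 CPM in control libraries, and rose by 0.63 ± 0.10 on the log2 scale (SE, adjusted p = 0.00833). NDUFA4, a subunit associated with complex IV, was at 99.8, 117 and 162 CPM in siNemp1 libraries, against 51.6, 66.6 and 129 CPM in control libraries. ATP5PB, of the stalk of the ATP synthase, was at 279.5, 232 and 269 CPM in siNemp1 libraries, against 162, 155.5 and 210.3 CPM in control libraries. The siNemp1 libraries of NDUFA7 and ATP5PB were all above the control libraries, as were those of 10.9% of all tested genes. Those of NDUFA4 overlapped with the control libraries. NDUFA4 rose by 0.69 ± 0.12 (adjusted p = 0.0101), COX7B of complex IV by 0.61 ± 0.10 (adjusted p = 0.0097) and ATP5PB by 0.57 ± 0.10 (adjusted p = 0.0114).

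Of the list for mitochondrial transcription and DNA maintenance, 3 of 23 tested members rose at 120 kPa with the block and 0 fell, with a median of 0.11, beside 6.24% of all genes called higher and 2.51% called lower. TFB2M, the transcription factor that opens the promoter, was at 18.8, 15.7 and 19.9 CPM in siNemp1 libraries, against 12.8, 10.7 and 13.8 CPM in control libraries, and rose by 0.54 ± 0.14 (adjusted p = 0.0396). TFAM, which packs mitochondrial DNA and starts transcription, had 0.48 ± 0.14 (adjusted p = 0.0556). The RNA polymerase gene POLRMT had −0.26 ± 0.19 (adjusted p = 0.436) and the DNA polymerase gene POLG −0.28 ± 0.13 (adjusted p = 0.219), while the helicase gene TWNK had 0.09 ± 0.14 (adjusted p = 0.768). RRM2B and DGUOK, which supply deoxynucleotides, rose by 0.62 ± 0.11 and 0.37 ± 0.10. Without the pair numbered 1, 2 or 3 the list had 3, 0 and 0 members called higher, and 1 with upper-quartile scaling. The counts over all genes in these fits are those given above for the nuclear list. At 10 kPa, fitted alone, 1 of 23 rose and 1 fell, beside 8.1% and 9.19% of all genes: RRM2B rose by 0.35 ± 0.12 (adjusted p = 0.0396), and LIG3, the ligase of mitochondrial DNA, fell by 0.33 ± 0.08 (adjusted p = 0.00711).

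For RNA processing, modification and decay, 4 of 42 tested members rose at 120 kPa with the block and 0 fell, with a median of 0.17, again beside 6.24% of all genes called higher. SLIRP, which with LRPPRC stabilises mitochondrial messenger RNA, was at 40.9, 48.1 and 54.4 CPM in siNemp1 libraries at 120 kPa, against 26.8, 30.9 and 43.6 CPM in control libraries, and rose by 0.52 ± 0.11 (adjusted p = 0.0164). Its partner LRPPRC had −0.04 ± 0.09 (adjusted p = 0.831). HSD17B10, a subunit of the mitochondrial RNase P that cuts at the start of tRNAs, rose by 0.38 ± 0.10 (adjusted p = 0.0351). Of the other subunits, TRMT10C had 0.47 ± 0.16 (adjusted p = 0.0916), and PRORP was not among the genes called. ELAC2, the RNase Z that cuts at the end of tRNAs, had −0.06 ± 0.15 (adjusted p = 0.854). DDX28 and RPUSD4, which act on mitochondrial rRNA, rose by 0.68 ± 0.18 and 0.34 ± 0.09. Of the genes for decay, polyadenylation and RNA granules, SUPV3L1 had 0.33 ± 0.11 (adjusted p = 0.0825), PNPT1 −0.02 ± 0.12, MTPAP 0.17 ± 0.11, GRSF1 0.18 ± 0.11 and FASTK 0.17 ± 0.25, and none passed. Without the pair numbered 1, 2 or 3 the list had 6, 0 and 2 members called higher, and 1 with upper-quartile scaling. Here too the counts over all genes are those given above for the nuclear list. At 10 kPa, fitted alone, 6 of 42 rose and 0 fell, beside 8.1% of all genes called higher, among them FASTKD2, which binds mitochondrial RNA, at 68.3 and 70.3 CPM in siNemp1 libraries, against 52.5 and 52.0 CPM in control libraries.

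Of the translation factors and assembly genes 3 of 19 rose at 120 kPa with the block and 1 fell, beside 6.24% of all genes called higher and 2.51% called lower. COA3 and COX14, which act on newly made MT-CO1 protein, rose by 0.58 ± 0.09 (adjusted p = 0.00807) and 0.53 ± 0.12 (adjusted p = 0.0203), GFM2, a ribosome recycling factor, rose by 0.38 ± 0.09 and LETM1 fell by 0.38 ± 0.09. Of the regulators of mitochondrial biogenesis 0 of 10 passed in either direction with the block, with PPARGC1A at −0.02 ± 0.49 and NRF1 at 0.20 ± 0.20. Of 24 nuclear genes used as markers of mitochondrial mass 2 rose, TOMM22 by 0.59 ± 0.13 and SDHB by 0.42 ± 0.11, and 0 fell, beside the same shares of all genes. Among the others, the outer membrane channel gene VDAC1 had −0.07 ± 0.09 (adjusted p = 0.71) and the citrate synthase gene CS −0.31 ± 0.11 (adjusted p = 0.103). The median over that list was 0.18. Without the pair numbered 2 none of the 6 lists had a member called. At 10 kPa, fitted alone, 2 of 19 translation and assembly genes rose and 1 fell, 1 of 9 biogenesis regulators rose and 2 fell, and 1 of 24 mass markers rose and 2 fell, beside 8.1% of all genes called higher and 9.19% called lower. The biogenesis coactivator gene PPRC1 fell there by 0.39 ± 0.07 (adjusted p = 0.000784), at 40.8 and 42.6 CPM in siNemp1 libraries, against 54.2 and 54.4 CPM in control libraries, while GABPB1, of a transcription factor for nuclear mitochondrial genes, rose by 0.38 ± 0.11 (adjusted p = 0.0164). HCFC1, a transcriptional coregulator, fell by 0.34 ± 0.10 (adjusted p = 0.0162). The 2 mass markers that fell were CS, by 0.23 ± 0.06 (adjusted p = 0.00543), and OPA1, which fuses inner membranes, by 0.32 ± 0.09 (adjusted p = 0.0134). The 1 that rose was HSPE1, by 0.18 ± 0.06 (adjusted p = 0.0496).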

How the data were processed

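For 10 libraries of total RNA depleted of rRNA, the authors deposited expected counts (estimated reads per gene, not scaled) of 40664 genes. Per the submitters' processing notes, FastQC 0.11.9, Trimmomatic 0.33, Salmon 1.80 (as written there), edgeR and GRCh38 were used. The annotation and strand setting of the counting were not given in the sources used here. Libraries were grouped by title. Nothing says that replicates are separate cultures, so p-values measure only the spread between libraries, which may be technical. Between replicates the chi-square per gene was 2.67 to 101, above sampling noise.

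Counts were rounded, filtered with filterByExpr (13990 genes left), scaled with TMM and fitted as 4 group means in edgeR 4.0.16 (limma 3.58.1, R 4.3.3) with robust quasi-likelihood, leaving 6 residual degrees of freedom. P-values are two-sided, Benjamini-Hochberg adjusted over all tested genes, and called under 0.05. The alternative with replicate number as a block leaves 4, and fits each number with a shift shared by both stiffnesses. Whether numbers pair libraries was checked from the deviations alone: those of same-numbered siNemp1 and control libraries from their group means correlated across genes at 0.426, 0.157 and 0.359 at 120 kPa, each over 0.1, and at 0.0171 at 10 kPa. The sources used here do not explain the numbers, and number 3 exists at 120 kPa alone, so blocked stiffness contrasts rest mainly on numbers 1 and 2. Other alternatives were DESeq2 1.42.0, other scalings, other filters, the compared libraries alone and each library left out. The scripts were tested on simulated data with known changes. Positions, lengths and sequences came from GENCODE 29 on GRCh38, and copies were aligned with Biopython 1.88.

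The genes and lists were chosen with earlier results of these data known. All MT- genes are accounted for, with 18 fixed genes of the pathway, NEMP1, nuclear copies above 1 CPM and up to 4 called genes per list with the smallest p. TOP3A, TFE3, NDUFB10, NDUFS1 and COX5B are not analysed here. Floors cover counting error only. Each SE was derived from the log2 fold change and the F value of the quasi-likelihood test, so it includes the spread between libraries.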

Additional observations from a re-analysis of the deposited data

Results flagged for a closer look

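MT-CO1 was lower in the siNemp1 library of every same-numbered pair at 120 kPa and higher in both pairs at 10 kPa. The log2 ratio of siNemp1 to control was −0.41, −1.14 and −0.68 in the pairs at 120 kPa, and 0.26 and 0.55 in the pairs at 10 kPa. The fitted difference between the knockdown effects was −1.10 ± 0.59 (SE), with an unadjusted p of 0.0894 and an adjusted p of 1 in edgeR. With the replicate number as a block it was −1.14 ± 0.26, with an adjusted p of 0.734, so the difference passed in neither of these fits. It was called without a filter on low counts, at −1.10 ± 0.25 (adjusted p = 0.00461), and with the block when the pair numbered 1 at 120 kPa was left out, at −1.32 ± 0.18 (adjusted p = 0.0244). Pairs at 10 kPa did not deviate together, with a correlation of 0.0171.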

How the results depend on the processing

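The number of MT- genes called at 120 kPa depended on the model. It was 0 from group means, and also with RLE or upper-quartile scaling, with library sizes computed without the MT- genes, with a stricter filter and with the 120 kPa libraries alone. In these settings 0 of all genes were called, except 119 of 10096 with the stricter filter, 23 of them lower. The number of MT- genes was 12 with the replicate block, with that block in the 120 kPa libraries alone, and with the block and RLE or upper-quartile scaling. Beside them 351 of 13990, 456 of 13362, and 379 and 570 of 13990 genes were called lower. Without a filter on low counts it was 12, beside 204 of 23547 genes called lower, and in DESeq2 4, beside 189 of 23537. With the block it was 11 without the pair numbered 1, 0 without the pair numbered 2 and 11 without the pair numbered 3. Leaving out 1 library from group means gave 0 to 10, the highest without control library 3. At 10 kPa the 4 libraries alone gave 8 calls, beside 2308 of 13345 genes. Leaving out 1 of them was an alternative added after the data were seen. The median log2 fold change of the 15 genes then ran from −0.225 to −0.087. In those fits the lone library is assumed to vary like the other group.

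For stiffness in siNemp1 cells, no filter gave 10 calls. For the difference of the knockdown effects, no filter gave 1 and the block without the pair numbered 1 gave 1, MT-CO1 in both. For the mean knockdown effect, the block gave 5, no filter 4, the block with upper-quartile scaling 7 and with RLE 5. Of all genes 583 of 13990, 267 of 23547, 716 of 13990 and 595 of 13990 were called lower there. Without the pair numbered 1, 2 or 3 the block gave 8, 3 and 12. Leaving out 1 library from group means gave 0 to 5 for the mean effect, and 0 in each of the other comparisons. The block changed the number of MT- genes called in no other comparison. The cause of these changes was not tested. Over the 15 genes and all 6 comparisons, 44 of 1980 log2 changes under an alternative had another sign than from group means, 26 of them for stiffness in control cells, and 0 of the 44 were called. For the genes with printed values, MT-ND3 at 120 kPa ran from −0.36 to 0.067 and MT-RNR1 from −0.29 to 0.075 when 1 library was left out, with MT-RNR1 at 0.02 without siNemp1 library 3, and the difference of effects for MT-ND3 ran from −0.030 to 0.38. The difference in the MT- share at 10 kPa was −0.06 percentage points, and 0.015 without the rRNA genes.

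The tRNA genes were at or near 0 and were not compared. Why was not tested.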
